A study of Mus musculus with 25 samples.

Results

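The genes described here encode the proteins of the cytosolic ribosome. They were chosen by name, as probes annotated with 1 gene whose symbol starts with Rpl or Rps and a digit, or is Rplp0, Rplp1, Rplp2 or Rpsa. The Rps6k kinases and pseudogene symbols were left out. The rule took 70 of the 32996 probes of the array and 60 genes. Of these genes, 53 encode core ribosomal proteins, 19 of the small subunit and 34 of the large subunit. A further 6, Rpl3l, Rpl7l1, Rpl22l1, Rpl36al, Rpl39l and Rps27l, encode paralogs of core proteins. The remaining gene, Rps19bp1, encodes a protein that binds Rps19 and is not a part of the ribosome.

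Ribosomal proteins join ribosomal RNA in a small subunit, which reads the mRNA, and a large subunit, which forms the peptide bond. Most are needed in equal number, and their abundant mRNAs often carry a terminal oligopyrimidine tract, a run of C and T bases at the start of the transcript through which mTOR signalling sets their translation. A few core proteins have paralogs that can stand in for them in certain tissues, the best known being Rpl3l, which takes the place of Rpl3 in striated muscle.

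RNA came from 4 tissues of 2 mouse strains, namely gastrocnemius muscle, the white fat around the gonads, liver and brain. The congenic strain B6.C-D7Mit353 is called lean and homozygous in its labels and is named for a marker on chromosome 7. Its background strain is C57BL/6J, called B6 here. Each of the 8 groups had 3 arrays that the submitters call biological triplicates, and neither age, sex, diet nor the extent of the donor segment is given in the sources used here. No agent was given to any group. Each array carried 1 RNA sample, and p-values measure the spread between these arrays.

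Levels are log2 signals after normalization across the 24 arrays unless stated. A probe counted as detected where its signal to noise ratio was at least 3. Median raw signals ran from 312 to 1232, and 13115 to 18236 probes were detected per array. Hepatocyte, adipocyte and myofibre markers were highest in the tissue of that label, and Mbp, Mog and Syt1 in brain, while Snap25 was not detected in either brain group. The 1 astrocyte marker on the array, Slc1a2, was higher in liver, at 13.28 in the congenic and 13.48 in B6, than in brain, at 11.51 and 11.56. The array means of 5 epididymis markers stood at 9.64, 18.23 and 14.45 in congenic fat and at 18.16, 16.74 and 18.21 in B6 fat, so congenic fat replicate 1 stood apart from the other 5. The means of 3 pancreas acinar markers were 9.22, 18.20 and 12.93 in congenic liver and 9.58, 11.31 and 10.92 in B6 liver. Of 53 core genes, 50 to 52 were detected per array, and 51 entered the tests. Rpl37, detected on 3 of 24 arrays, and Rpsa, detected on 1, did not.

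The median tissue range of core ribosomal protein transcripts was smaller than that of all tested probes. After quantile normalization liver had the lowest level for most core genes. The distance between the highest and the lowest of the 4 tissue means had a median of 1.20 log2 units over 51 core genes, from 0.60 to 2.47. Over all 19439 tested probes this median was 1.98. That set includes probes detected in only 1 of the 8 groups, while all tested core genes except Rpl27 were detected on all 24 arrays. The comparison is not matched for detection or signal. Liver had the lowest tissue mean for 43 of 51 core genes and the highest for none. Gonadal fat had the highest mean for 27, brain for 13 and gastrocnemius for 11. These ranks depend on the scaling. With arrays centred on the median of all probes, in place of quantile normalization, liver was lowest for 25 and brain for 22, and gastrocnemius was highest for 48. The median tissue range was then 1.02 for core genes and 2.0 for all tested probes. In whole tissue, a smaller share of cells with the transcript and less of it per cell cannot be told apart.

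**Figure D1:**
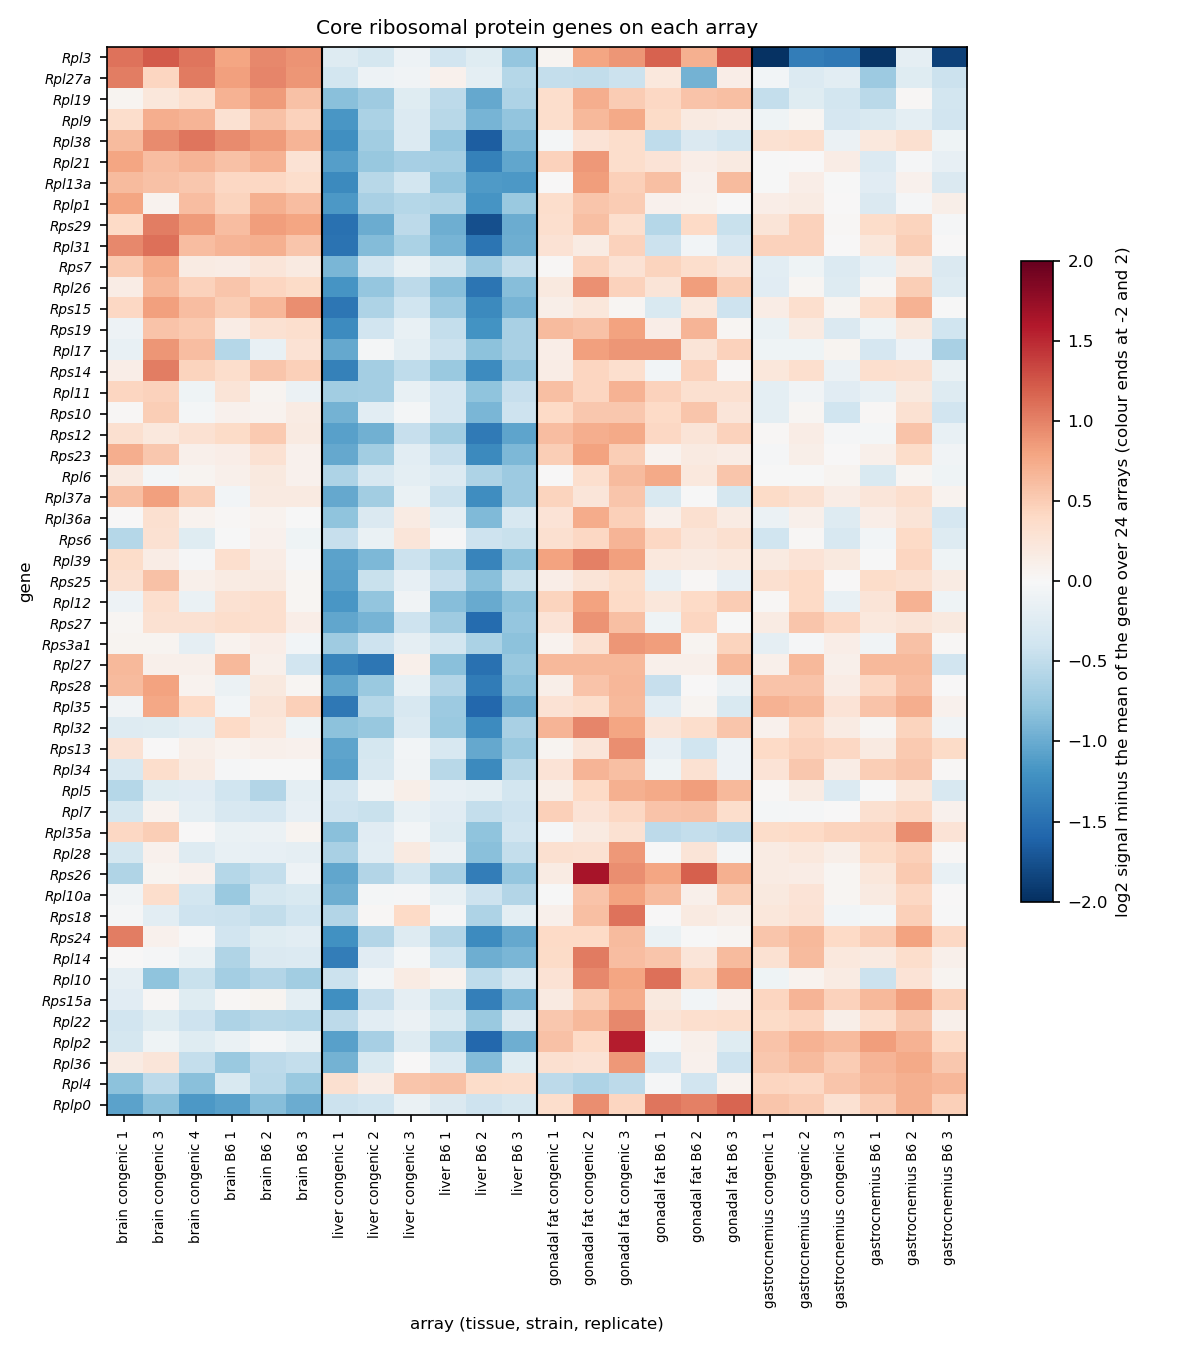
Log2 signal of 51 core ribosomal protein genes on 24 arrays as the difference from each gene's mean over the arrays, with genes ordered by the brain minus gastrocnemius difference, after quantile normalization. Columns are arrays by tissue, strain and replicate, congenic left of B6. The liver columns are blue for most genes, while Rpl4, second from the bottom, is not. Rpl3 at the upper edge is lowest in gastrocnemius and Rplp0 at the lower edge is lowest in brain.

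In liver, 45 of 51 core genes were called lower than in the mean of the other 3 tissues, and 1 was called higher (limma, adjusted p below 0.05). Over all tested probes 38.8% were called lower and 25.6% higher, 64.3% in all. The core median was -0.88 on the log2 scale, against -0.25 over all tested probes. All 6 liver arrays lay below all 18 other arrays for 12 core genes, a pattern found in 4.78% of tested probes. None lay above, as 7.65% of tested probes did. The mean deviation of the core genes from their 24-array means was -0.94, -0.49 and -0.17 in congenic liver and -0.45, -0.99 and -0.67 in B6 liver. Both strains thus lay below the other tissues, whose lowest array stood at -0.06, but liver arrays of the same strain were spread widely. Congenic liver alone gave a median of -0.88 and B6 liver alone -0.89. With median centring the core median in liver was -0.36, and 23 of 51 core genes were called lower and 1 higher, where 36.7% of tested probes were lower and 24.5% higher. The core median in liver was thus below 0 under both scalings, but nearer to the median of all tested probes under the second. With any 1 array left out, congenic liver replicate 2 with its acinar marker mean of 18.20 included, the core median in liver ran from -0.99 to -0.75.

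In gonadal fat, 36 core genes were called higher and 2 lower, where 30.8% of tested probes were higher and 28.5% lower. The fat arrays lay above all others for 1 core gene and below them for none, against 3.32% and 0.947% of tested probes. The core median was 0.52, against 0.04 over all tested probes, but with median centring it was 0.03, with 3 called higher and 6 lower, where 29.9% of tested probes were higher and 30.2% lower. In brain, 22 were called higher and 9 lower, where 33.4% of tested probes were higher and 37.1% lower, 70.5% in all. Brain arrays lay above all others for 3 core genes and below them for 1, against 14.1% and 6.38% of tested probes. The brain median of 0.21 turned to -0.32 with median centring, with 4 called higher and 23 lower, where 34.9% of tested probes were higher and 37% lower. In gastrocnemius, 19 were called higher and 3 lower, where 27.1% of tested probes were higher and 35.2% lower. No core gene had gastrocnemius arrays all above or all below the others, against 7.82% and 2.66% of tested probes. The gastrocnemius median of 0.22 became 0.75 with median centring, with 43 called higher and 1 lower, where 25.9% of tested probes were higher and 34.7% lower. Relative to the median of all tested probes, the core median was -0.63 in liver with quantile normalization and -0.14 with median centring, 0.48 and 0.03 in gonadal fat, 0.33 and -0.23 in brain and 0.42 and 0.96 in gastrocnemius. Under both scalings the core median was below that of all probes in liver and above it in gastrocnemius and gonadal fat, by 0.03 in fat under the second, and in brain its sign turned.

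**Figure D2:**
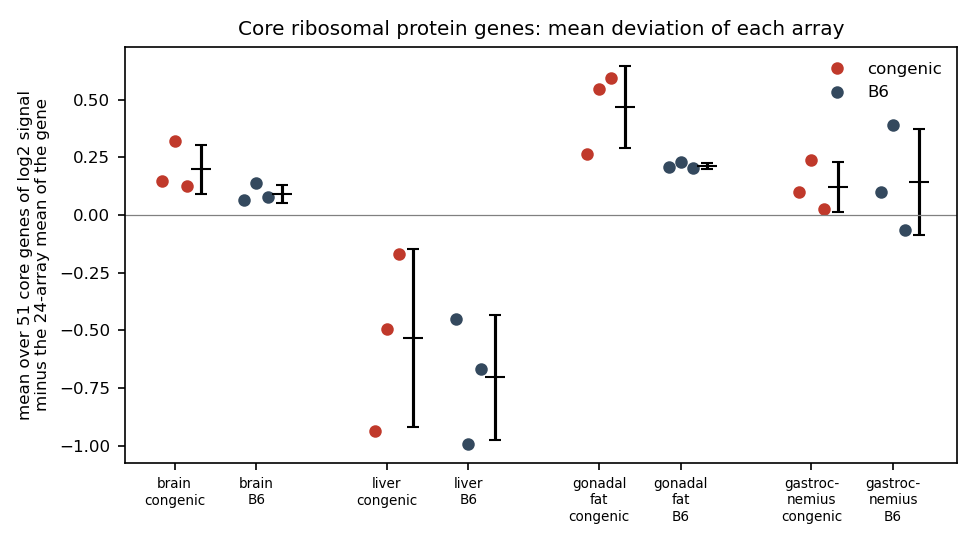
Mean over 51 core genes of the log2 signal minus each gene's 24-array mean, for each array (points) with the group mean and SD (bars, n = 3) after quantile normalization. The 6 liver arrays lie between -0.99 and -0.17 and the other 18 arrays between -0.06 and 0.60, and the spread among liver arrays is wider than that among brain arrays.

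In liver 16 of 18 small subunit genes and 29 of 33 large subunit genes were called lower, with medians of -1.02 and -0.86. Of all tested probes 38.8% were lower there. In brain 10 of 18 small subunit genes were called higher and 1 lower, against 12 higher and 8 lower of 33 large subunit genes. Of all tested probes 33.4% were higher and 37.1% lower there. The brain counts depend on the scaling, since median centring gave 4 core genes higher and 23 lower. No test of the difference between subunits was run.

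Some core genes differed in tissue pattern from the mean of the core genes. When each array was centred on its own core mean, a setting chosen after the data were seen, 17 core genes were called higher and 16 lower in brain, where 28.5% of tested probes were higher and 42.2% lower. In liver the counts were 13 and 14, where 50.3% of tested probes were higher and 15.8% lower. In gonadal fat they were 11 and 13, where 16.9% were higher and 43.7% lower, and in gastrocnemius 12 and 12, where 21.5% were higher and 40.1% lower. This centring puts the core mean at 0, so core genes fall on both sides by construction, and a shift of a whole array does not change their differences.

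**Figure D3:**
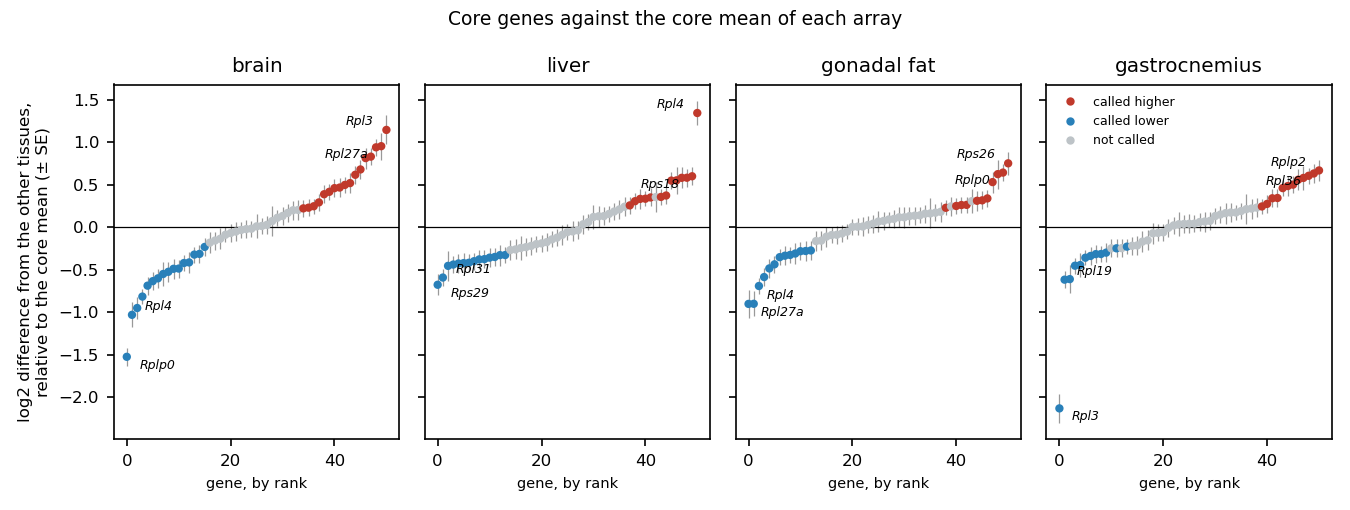
Log2 difference of each core gene between a tissue and the mean of the other 3 tissues, with arrays centred on the mean of the core genes, for 51 genes ranked in each panel (bars, SE). Red and blue points passed an adjusted p of 0.05 in limma, and the 2 genes at each end are named. Rpl3 in gastrocnemius lies at -2.13, Rplp0 in brain at -1.52 and Rpl4 in liver at 1.35.

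Rpl3 had the widest tissue range of the core genes. The protein lies close to the peptidyl transferase centre of the large subunit, and its gene is on chromosome 15. In gastrocnemius its log2 signal was 14.999, 15.58 and 15.55 on congenic arrays and 15.01, 16.80 and 15.10 on B6 arrays. In liver it was 16.71, 16.62 and 16.86 on congenic arrays and 16.59, 16.73 and 16.20 on B6 arrays. Of the gastrocnemius arrays, 5 lay below every other array, and B6 replicate 2 lay among the livers. Brain arrays stood at 18.06, 18.20 and 18.04 in the congenic and at 17.77, 17.93 and 17.87 in B6. Congenic fat had 17.03, 17.77 and 17.85 and B6 fat 18.14, 17.69 and 18.22. Rpl3 was 3.87-fold lower in gastrocnemius than in the mean of the other tissues, a log2 difference of -1.95 ± 0.19 (SE, limma, adjusted p = 4.3e-09). Without B6 gastrocnemius replicate 2 the difference was -2.23. That array had the highest macrophage marker mean of the 6 gastrocnemius arrays, 12.51, with the others between 9.95 and 10.68, and the part of this in its Rpl3 level was not tested. Rpl3 was higher in brain, at 1.34 ± 0.19, and in fat, at 1.08 ± 0.19 (limma, adjusted p = 1e-06 and 3.2e-05).

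Rpl3l differed in the other direction from Rpl3 in gastrocnemius and brain, while both had negative differences in liver. It is the paralog of Rpl3 known from heart and skeletal muscle, on chromosome 17. Its signals in gastrocnemius were 19.74, 19.95 and 19.58 in the congenic and 19.72, 19.30 and 19.56 in B6. Brain arrays stood at 9.59, 10.81 and 9.66 in the congenic and at 8.93, 11.15 and 9.75 in B6, with 1 of these 6 detected. Liver arrays stood at 10.59, 10.58 and 11.19 in the congenic and at 10.51, 10.61 and 10.40 in B6, with none detected. All 6 gastrocnemius arrays lay above all others. Where no array of a group was detected, the fold is the ratio of the measured means and rests on a mean below detection. By these means congenic gastrocnemius was about 854-fold above congenic brain and 502-fold above congenic liver, and B6 gastrocnemius 518-fold above B6 liver. These folds are not bounds, since the lower mean could not be told from background. Gastrocnemius passed against the mean of the other tissues (limma, adjusted p = 1.7e-12), and no size is given for that difference, since most brain and all liver arrays were below detection.

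Gonadal fat split for Rpl3l. Congenic fat had 10.02, 15.98 and 14.41, the first not detected, and B6 fat had 15.46, 15.84 and 15.62. Congenic fat replicate 1 was thus at the brain and liver level, and the other 5 arrays were between those and gastrocnemius. The same array had an epididymis marker mean of 9.64, while the other 5 fat arrays lay between 14.45 and 18.23. Its myofibre marker mean was 11.93, within the 9.94 to 13.93 of the other fat arrays. The part of epididymis or muscle RNA in the Rpl3l signal of fat was not tested. The fat difference of 1.13 ± 0.48 (SE, limma, adjusted p = 0.047) was 2.0 without that array and 0.51 without congenic fat replicate 2. Its call was lost in 20 of the 24 fits with 1 array left out, and with the title number as a random block (limma, adjusted p = 0.055). Congenic arrays alone gave -0.05 and B6 arrays alone 2.31. The mean of the other tissues includes brain and liver arrays that were mostly below detection, so none of these sizes measures a difference in level.

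Rps27 and its paralog Rps27l differed in tissue pattern as well. Both encode a small subunit protein, and Rps27l is known as a gene induced by p53. Rps27l stood at 13.60, 13.72 and 13.36 in congenic brain and at 13.55, 13.50 and 13.34 in B6 brain. Liver arrays had 16.25, 16.41 and 16.76 in the congenic and 16.64, 16.04 and 16.45 in B6, and gastrocnemius arrays 16.48, 16.35 and 16.25 in the congenic and 16.36, 16.30 and 16.14 in B6. In fat, the congenic had 15.93, 15.47 and 16.20 and B6 14.93, 14.93 and 14.96. Every brain array lay below every other array, by a 5.79-fold difference of means, -2.53 ± 0.11 on the log2 scale (SE, limma, adjusted p = 1.9e-15). Liver was higher by 1.34 ± 0.11 and gastrocnemius by 1.20 ± 0.11.

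Rps27 itself was 2.30-fold lower in liver, at -1.20 ± 0.13 (SE, limma, adjusted p = 3.6e-08). Its liver arrays stood at 17.43, 17.53 and 18.04 in the congenic and at 17.76, 16.93 and 17.70 in B6, all below the 18.37 to 19.36 of the other tissues. In brain, where Rps27l was lowest, Rps27 was at 18.50, 18.77 and 18.77 in the congenic and at 18.82, 18.80 and 18.60 in B6.

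**Figure D4:**
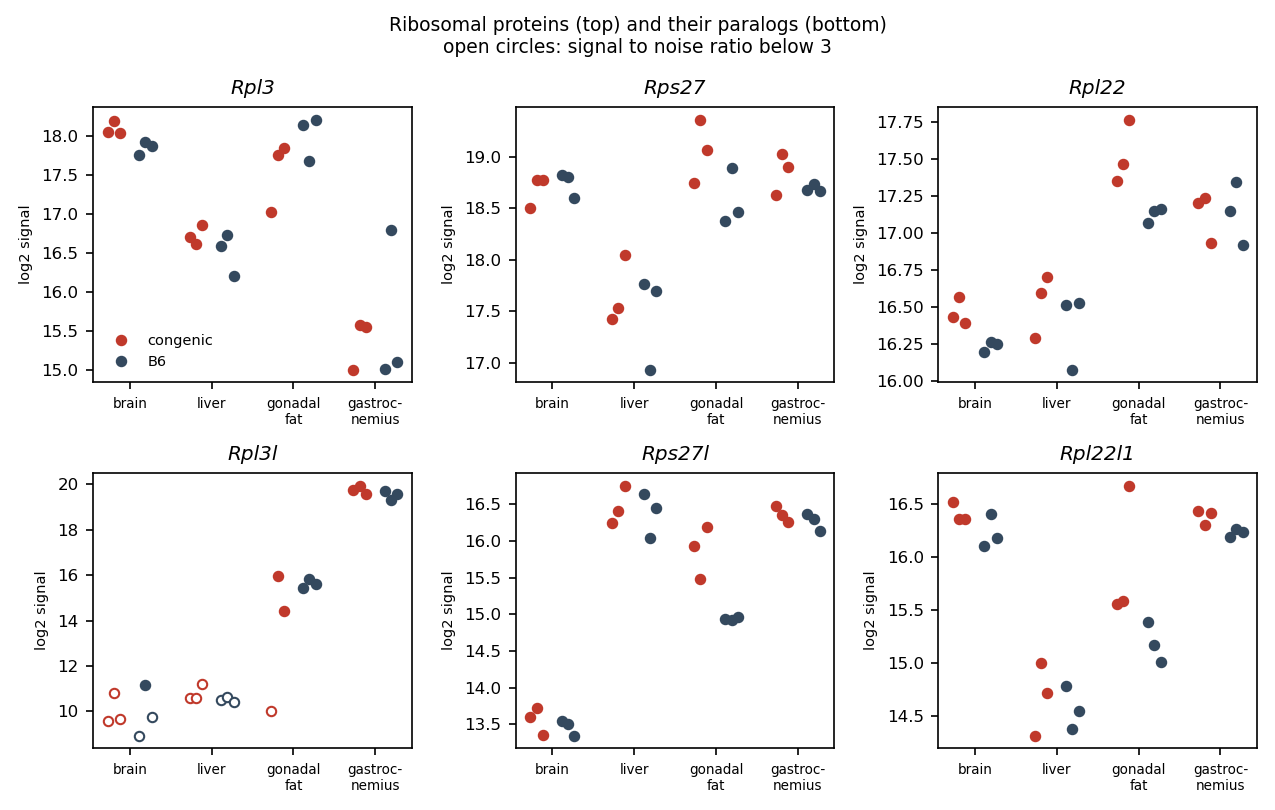
Log2 signal of 3 ribosomal protein genes (upper panels) and of their paralogs (lower panels) on 24 arrays, by tissue, with congenic arrays left of B6 arrays. Each panel has its own scale, and signals of different probes are not comparable. Rpl3 is lowest and Rpl3l highest in gastrocnemius, and Rps27l is lowest in brain at 13.34 to 13.72.

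Rpl22 and Rpl22l1 form the third such pair. In mice Rpl22 is known to bind RNA and to hold down Rpl22l1, its close relative. Rpl22 had 16.43, 16.57 and 16.39 in congenic brain and 16.19, 16.26 and 16.25 in B6 brain, with gastrocnemius at 17.20, 17.24 and 16.93 in the congenic and 17.15, 17.35 and 16.92 in B6. Its brain difference was -0.62 ± 0.10 and its liver difference -0.49 ± 0.10, while fat was higher by 0.69 ± 0.10 and gastrocnemius by 0.42 ± 0.10 (SE, limma, largest adjusted p = 0.00085). The second Rpl22 probe passed at -0.40 ± 0.15 in brain, -0.53 ± 0.15 in liver and 0.63 ± 0.15 in fat. In gastrocnemius that probe lay at 0.29 ± 0.15 and did not pass (SE, limma, adjusted p = 0.089). Rpl22l1 was higher in brain by 0.82 ± 0.13 and in gastrocnemius by 0.80 ± 0.13, and lower in liver by 1.44 ± 0.13 on the log2 scale. Its liver arrays, at 14.31, 15.01 and 14.72 in the congenic and at 14.78, 14.38 and 14.55 in B6, did not overlap with any other array. In brain the pair thus moved in opposite directions, and in gastrocnemius both were higher by the main probe of Rpl22. Congenic fat replicate 3 stood at 16.68 for Rpl22l1, with the other 5 fat arrays between 15.01 and 15.58.

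Of the remaining paralogs, Rpl39l, known from the mouse testis, was lower in brain by 1.02 ± 0.16 on the log2 scale and higher in gastrocnemius by 0.56 ± 0.16. Rpl36al was lower in brain at -0.57 ± 0.14 and higher in gastrocnemius at 0.50 ± 0.14, and Rpl7l1 was lower in brain at -0.57 ± 0.13 and higher in liver at 0.59 ± 0.13. Each of these passed limma's threshold, with adjusted p-values from 7.1e-06 to 0.0047. Rpl39l was also called higher in gonadal fat, at 0.26 to 0.47 with 1 array left out, but that call was lost in 16 of 24 such fits. The means of 4 germ cell markers were 8.9, 13.78 and 15.6 in congenic fat and 14.12, 12.32 and 12.69 in B6 fat. The part of testis RNA in the Rpl39l signal of fat was not tested. In all, 5 of the 6 paralogs were called lower in brain, where 37.1% of tested probes were. Rps19bp1 passed in no tissue, with differences from -0.22 in fat to 0.40 in brain.

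Rplp0 led the core genes that were low in brain. It is the base of the ribosomal stalk, which recruits elongation factors together with Rplp1 and Rplp2. Its signals were 16.14, 16.37 and 16.07 in congenic brain and 16.12, 16.36 and 16.23 in B6 brain, below the 16.78 of the lowest array elsewhere. Congenic fat had 17.57, 18.14 and 17.64, and B6 fat 18.28, 18.23 and 18.37. Rplp0 was 2.51-fold lower in brain, at -1.33 ± 0.10 (SE, limma, adjusted p = 2.1e-11), and 2.14-fold higher in fat, at 1.10 ± 0.10. Its second probe lay at -1.16 ± 0.17 in brain and 0.59 ± 0.17 in fat. In gastrocnemius the main probe lay at 0.68 ± 0.10 and the second at 1.52 ± 0.17. In liver they lay at -0.45 ± 0.10 and -0.95 ± 0.17. The main probe thus had its highest mean in fat, but the second in gastrocnemius. Of the other stalk genes, Rplp1 was higher in brain by 0.72 ± 0.12. Rplp2 had a brain difference of -0.22 ± 0.15, which did not pass, and with arrays centred on the core mean it was lower there, at -0.41 ± 0.12 (SE, limma, adjusted p = 0.0048). Rplp2 passed in gastrocnemius, at 0.85 ± 0.15, and in liver, at -1.15 ± 0.15. No test of the stalk genes against each other was run.

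Rpl4, whose protein lines the peptide exit tunnel, was the 1 core gene called higher in liver. Its liver arrays stood at 12.69, 12.52 and 12.92 in the congenic and at 12.95, 12.73 and 12.71 in B6. Gastrocnemius was at 12.79, 12.77 and 12.91 in the congenic and at 13.01, 13.07 and 13.02 in B6, and brain at 11.54, 11.83 and 11.52 in the congenic and at 12.06, 11.83 and 11.62 in B6. Liver and gastrocnemius were thus high and overlapped, and brain was low. The differences were 0.52 ± 0.12 in liver, 0.76 ± 0.12 in gastrocnemius, -0.83 ± 0.12 in brain and -0.44 ± 0.12 in fat (SE, limma, largest adjusted p = 0.0021). The Rpl4 probe was the dimmest of the tested core genes, with tissue means from 11.7 in brain to 12.9 in gastrocnemius. Its signal to noise ratio ran from 11.1 to 36.6. The part of this dimness in its tissue pattern was not tested.

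The core genes highest in brain after Rpl3 were Rpl27a, Rpl38, Rpl31 and Rps29. Rpl38 is required in mouse embryos for the translation of a set of Hox mRNAs, and Rps29 is a protein of the head of the small subunit. Rpl27a was 2.22-fold higher in brain, with brain arrays between 14.79 and 15.39 and all others between 13.42 and 14.57. Its log2 difference was 1.15 ± 0.14 (SE, limma, adjusted p = 1.6e-07). Rpl38 was 2.20-fold, Rpl31 2.04-fold and Rps29 2.01-fold higher. For Rpl27a, Rpl38 and Rpl31 no brain array overlapped with another tissue, which makes up the 3 genes counted above. Median centring left Rpl31 at 0.22 in brain, past no threshold (limma, adjusted p = 0.28), and the deposited matrix values left Rpl38 at 0.35 (adjusted p = 0.11). Besides Rplp0 and Rpl4, the lowest in brain were Rpl10 at -0.75 ± 0.14, Rpl22 and Rpl5 at -0.49 ± 0.11. Rpl10 is a late-joining large subunit protein, and Rpl5 binds the 5S ribosomal RNA.

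In gonadal fat the core genes with the largest positive differences were Rps26, Rplp0, Rpl3, Rpl10 and Rpl32. Rps26 sits where the mRNA leaves the small subunit. Congenic fat had 18.01, 19.49 and 18.77 and B6 fat 18.63, 19.05 and 18.56, while all other tissues lay between 16.45 and 18.37. It was 2.31-fold higher in fat, at 1.21 ± 0.17 (SE, limma, adjusted p = 2.6e-06). Rpl10 was 1.98-fold higher, at 0.99 ± 0.14, with no overlap between fat and other arrays, but with median centring both Rpl10, at 0.39, and Rpl32, at 0.24, did not pass (limma, adjusted p = 0.072 and 0.20). Rpl27a and Rpl4, at -0.45 ± 0.14 and -0.44 ± 0.12, were the 2 core genes called lower. B6 fat replicate 2 was the lowest fat array for Rpl27a, and without it the difference was -0.26 and did not pass (limma, adjusted p = 0.073).

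In gastrocnemius Rplp2, Rpl36, Rps15a, Rpl4 and Rps24 had the largest positive differences, from 0.74 ± 0.14 for Rps24 to 0.85 ± 0.15 for Rplp2. Rpl36 stood at 16.44, 16.53 and 16.41 in congenic gastrocnemius and at 16.58, 16.67 and 16.44 in B6 gastrocnemius. The lower calls were Rpl3, Rpl19 at -0.44 ± 0.12 and Rpl27a at -0.43 ± 0.14. Rpl19 changed sign to 0.21 with median centring. In liver the largest negative differences belonged to Rps29 at -1.50 ± 0.15, Rpl31 at -1.41 ± 0.13, Rpl27 at -1.28 ± 0.22, Rps12 at -1.26 ± 0.13 and Rpl26 at -1.25 ± 0.14. Rps29 was 2.83-fold lower there, with 15.02, 15.52 and 15.98 on congenic arrays and 15.53, 14.75 and 15.53 on B6 arrays. Median centring left Rpl27 at -0.30 (limma, adjusted p = 0.31). Its probe was among the 3 brightest of the array on all 18 arrays of the other tissues and on 1 of 6 liver arrays. Quantile normalization gives such probes 1 of 3 values by rank, so the size of -1.28 rests on ranks at the top of the scale. In spite of its brightness, the signal to noise ratio of the Rpl27 probe ran only from 2.7, on B6 brain replicate 1, to 8.3. The part of this in its liver difference was not tested.

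Several of these genes had more than 1 probe. Of the 60 genes 9 did, 8 with 2 probes and Rpl31 with 3. Probes of the same gene passed in opposite directions for Rps15a alone, in liver. Its brighter probe was at -1.02 ± 0.14 in liver and -0.13 ± 0.14 in brain, and its dimmer probe at 1.46 ± 0.23 in liver and -2.04 ± 0.23 in brain (SE). The third, dim probe of Rpl31 and the dimmer probes of Rpl14 and Rpl21 passed in no tissue. The brighter probe of Rpl14 passed in liver, fat and gastrocnemius, and that of Rpl21 in brain, liver and fat. The dimmer probes of Rpl34 and Rps24 did not enter the tests between tissues. Ribosomal protein genes have many processed pseudogenes, and signal from such copies or from paralogs cannot be told apart from the gene's own on these arrays.

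Start regions are shown for genes whose tissue patterns are described above, since the pyrimidine run at the start is the feature ribosomal protein mRNAs are known for. RefSeq start windows on build GRCm38.p6 were at hand for 44 of 53 core genes. A run of at least 8 bases, each C or T, that overlapped the stretch from 5 bases before to 5 bases from the annotated start was found in 18 of 44, or 40.9%. Of all 27025 genes with windows, 11.0% had one, and 10.1% of 69 mitochondrial ribosome genes did. For a gene with more than 1 annotated start, a run in any of its windows counted, and the window with the longest run is shown. Among the genes shown, Rps27l, Rpl22 and Rpl3l had 2 windows each. In the sequences below, 30 bases before and 20 bases from the start, on the strand of the gene, capitals mark such a run.
Rpl27a, chr7:109519165-109519214, plus strand: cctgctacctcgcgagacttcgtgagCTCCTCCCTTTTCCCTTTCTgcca
Rpl4, chr9:64173357-64173406, plus strand: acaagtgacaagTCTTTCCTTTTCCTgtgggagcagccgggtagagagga
Rps27, chr3:90213629-90213678, minus strand: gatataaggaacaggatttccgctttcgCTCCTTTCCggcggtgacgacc
Rps27l, chr9:66946056-66946105, plus strand: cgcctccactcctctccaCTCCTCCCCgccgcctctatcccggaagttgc
Rpl22l1, chr3:28805478-28805527, plus strand: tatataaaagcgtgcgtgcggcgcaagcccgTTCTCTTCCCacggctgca
Rplp0, chr5:115559437-115559486, plus strand: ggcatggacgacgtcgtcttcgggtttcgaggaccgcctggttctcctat
Rpl3l, chr17:24727796-24727845, plus strand: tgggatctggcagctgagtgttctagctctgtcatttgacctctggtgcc
Rpl22, chr4:152324406-152324455, plus strand: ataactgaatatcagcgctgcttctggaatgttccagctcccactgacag
Rpl31, chr1:39367821-39367870, plus strand: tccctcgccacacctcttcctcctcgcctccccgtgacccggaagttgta

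Rpl27a has a run of 20 bases and Rpl4 one of 14, and Rpl22l1 has one of 10. Rps27 and Rps27l both have a run of 9. The runs of Rpl4 and Rps27l end before the annotated start, so they lie outside the annotated transcript. In the windows of Rplp0, Rpl3l and Rpl22 the longest run that overlaps the stretch around the start has 4 bases. In that of Rpl31 it has 7. The motif CCGGAAG, searched on both strands from 250 bases before to 50 bases after the start, was found in 45.5% of the core genes, in 9.93% of all genes and in 37.7% of mitochondrial ribosome genes. AAGATGG was found in 15.9% of core genes, 7.28% of all genes and 18.8% of mitochondrial ribosome genes. TATAAA was found in 11.4% of core genes, 15.7% of all genes and 7.25% of mitochondrial ribosome genes. These are matches of letters, counted in any window of a gene, and not binding sites.

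Other genes of translation had tissue patterns of their own. Eef1a1, the main elongation factor that brings aminoacyl-tRNA to the ribosome, was lower in gastrocnemius by 2.09 log2 units. Eef1a2, known as its substitute in muscle and neurons, was detected on all gastrocnemius and brain arrays, with group means of 17.99 in congenic and 17.86 in B6 gastrocnemius, but on 1 of 6 liver and 1 of 6 fat arrays. Of 26 genes listed for translation initiation, which include the repressors Eif4ebp1 and Eif4ebp2, 18 were called lower and 5 higher in brain. Their median there was -0.62, where 37.1% of tested probes were lower and 33.4% higher. The translation repressor Eif4ebp1 lay at -5.29 and the poly(A) binding protein gene Pabpc1 at -1.65 there, while Eif4a2 lay at 1.23. Of 33 ribosome biogenesis genes, 20 were called higher and 4 lower in gastrocnemius, with a median of 0.56, including Rrp12 at 2.25 and Gnl3 at 1.46, where 27.1% of tested probes were higher and 35.2% lower.

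Proteins of the mitochondrial ribosome, a separate machine, were set beside the cytosolic ones. In gastrocnemius 56 of 62 were called higher and 1 lower, with a median of 0.98, against a core median of 0.22, where 27.1% of tested probes were higher and 35.2% lower. In gonadal fat 49 were called lower and 2 higher, with a median of -0.74, against a core median of 0.52, where 28.5% of tested probes were lower and 30.8% higher. In liver 16 were called higher and 15 lower, with a median of 0.03, against a core median of -0.88, where 25.6% of tested probes were higher and 38.8% lower. With median centring the mitochondrial medians were 1.03 in gastrocnemius, -0.80 in fat and -0.02 in liver, against core medians of 0.75, 0.03 and -0.36, so the gap was narrower in all 3 tissues. No test of the difference between the lists was run.

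Across arrays of the same group the core genes moved together. After each group mean was removed, the correlation between pairs of core genes over 24 arrays had a median of 0.57, and 34 of 1275 pairs were negative. Over pairs of all tested probes the median was -0.0004. By tissue, with 6 arrays each, the median for core pairs was 0.88 in liver, 0.73 in gastrocnemius, 0.32 in fat and 0.24 in brain. These values describe the arrays, since the genes of an array share its RNA, hybridization and normalization. Rpl27a at 0.12, Rpl4 at 0.27 and Rpl3 at 0.40 followed the mean of the other core genes least, and Rpl36a at 0.94 and Rps15a at 0.93 most. Of the paralogs, Rpl36al followed the core mean at 0.83, Rps27l at 0.61 and Rpl39l at -0.05.

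No member differed between the strains past the threshold in any tissue. The strain comparison asks whether the segment carried by the congenic alters expression in these tissues, and it was fitted in each tissue on its own 6 arrays. limma called 0 of the tested probes in each of the 4 tissues (0%), also averaged over the tissues. Averaged over the tissues, 601 probes were higher and 633 lower at an unadjusted p below 0.05, among them 12 and 1 core genes. The tissue by strain interaction called 1 of 19439 probes (0.00514%), which was no member. The lowest adjusted p of a core gene was 0.48 in brain, 0.91 in gonadal fat and 1.00 in liver and gastrocnemius.

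In gonadal fat, 40 of 51 core genes had higher values in the congenic, with a median of 0.30, against 0.01 over all tested probes. At an unadjusted p below 0.05 there were 10 higher and 0 lower core genes, where 2.03% of tested probes were higher and 1.42% lower. Congenic arrays lay above all B6 arrays for 19 core genes and below them for 2, patterns that 4.89% and 3.21% of tested probes had. Rpl39, a small protein of the exit tunnel, had 18.88, 19.05 and 18.90 in congenic fat, against 18.37, 18.35 and 18.38 in B6 fat, with arrays normalized within the tissue. Its log2 difference was 0.58 ± 0.20 (SE, limma, adjusted p = 0.91). Rpl37a, Rpl35a, Rpl38 and Rpl36 likewise had no overlap, with differences from 0.58 to 0.64 and the same adjusted p. Among the paralogs, Rps27l had 0.81 ± 0.24 in fat (SE, limma, adjusted p = 0.91).

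Other measures moved with the strain in fat. The median raw signal was 374, 539 and 660 on congenic fat arrays, against 744, 952 and 814 on B6 ones. The epididymis marker means given above also differed, and 59 of 62 mitochondrial ribosome genes had higher congenic values, with a median of 0.43. The core median was 0.24 to 0.38 with any 1 fat array left out and 0.60 with median centring. The part of these measures in the core gene values was not tested.

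Congenic brain gave a smaller shift, and 34 of 51 core genes had higher values than in B6, with a median of 0.06, against -0.03 over all tested probes, and this median turned to -0.02 with median centring. At an unadjusted p below 0.05, 7 were higher and 1 was lower, where 4.26% of tested probes were higher and 5.39% lower. Without overlap 6 were higher and 2 lower, against 6.54% and 8.89% of tested probes. Rpl37a, a large subunit protein, had 18.62, 18.79 and 18.54 in congenic brain and 18.06, 18.26 and 18.26 in B6 brain, a difference of 0.46 ± 0.14 (SE, limma, adjusted p = 0.48). Rpl36 at 0.50, Rps24 at 0.55 and Rpl10a at 0.39 were also higher in value, and Rpl19 was at -0.40. Congenic brain replicate 1 stood at 17.86 for Rps24, with 17.07 and 17.00 on the other congenic arrays, and without it the difference was 0.27. That of Rpl10a ran from 0.23 without congenic replicate 3 to 0.55 without another array.

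In liver 50 of 51 core genes had higher congenic values, but 0 passed an unadjusted p of 0.05, where 1.71% of tested probes were higher and 1.56% lower. No core gene separated the strains, while 3.1% of tested probes did so upwards and 3.86% downwards. The core median of 0.19 was within the SD of 0.37 between replicates of the core mean. It ran from -0.004 without congenic replicate 3 to 0.40 without congenic replicate 1. The smallest p values belonged to Rplp2 at 0.43 ± 0.33, Rpl13a, Rpl38, Rpl32 and Rps26, and Rplp2 was at 0.14 without B6 replicate 2 and at 0.67 without B6 replicate 1. In gastrocnemius 21 of 51 had higher congenic values, with a median of -0.02, and 0 passed an unadjusted p of 0.05, where 1.32% of tested probes were higher and 1.49% lower. The strains did not overlap for 2 core genes upwards and 2 downwards, against 4.05% and 3.71% of tested probes. The smallest p values there belonged to Rpl17 at 0.38 ± 0.18, Rpl7, Rpl27a, Rpl21 and Rpl4, and Rpl17 was at 0.22 without B6 replicate 3.

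Chromosome 7, which holds the marker of the congenic segment, carries 7 of the tested core genes, Rpl13a, Rpl27a, Rpl28, Rplp2, Rps13, Rps15a and Rps19. Of these 3 had higher congenic values in brain, 7 in liver, 6 in fat and 4 in gastrocnemius, with medians of -0.003, 0.27, 0.40 and 0.01. The medians of all 51 core genes in these tissues were 0.06, 0.19, 0.30 and -0.02. Rplp2 in fat had the widest difference of the 7, at 0.86 (limma, adjusted p = 0.91), and it was 0.50 without congenic fat replicate 3. The smallest adjusted p of the 7 in any tissue was 0.78. Which of the 7 lie within the segment was not analysed here.

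**Figure D5:**
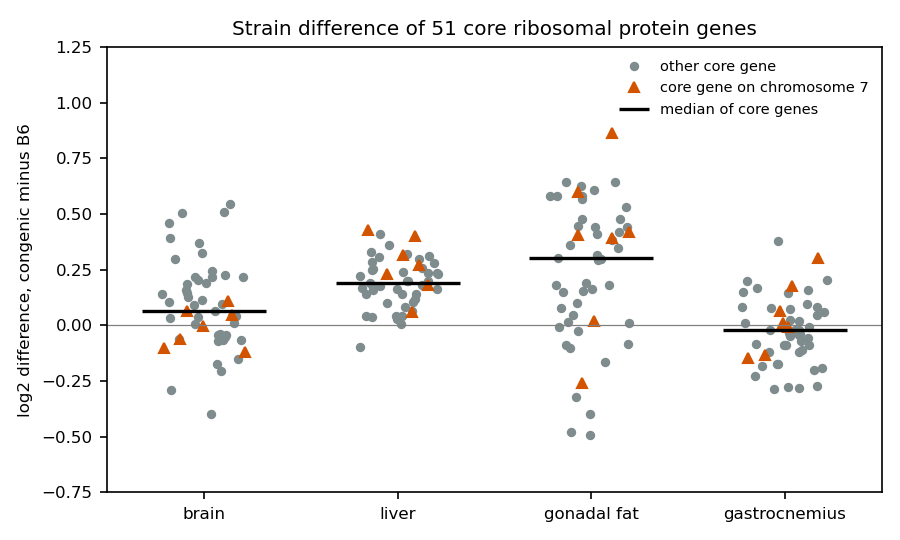
Log2 difference, congenic minus B6, of 51 core genes in each tissue (points, with genes on chromosome 7 as triangles) and their median (line). The medians lie at 0.06 for brain, at 0.19 for liver, at 0.30 for gonadal fat and at -0.02 for gastrocnemius, and no point passed the test.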

How the data were processed

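Total RNA was extracted with TRIzol and amplified to digoxigenin-labelled cRNA for 1-colour Applied Biosystems chemiluminescent arrays, per the labels' protocols. The deposited array tables hold a Signal intensity on a linear scale, a signal to noise ratio (a score) and a flag for each probe, per the file headers. Scanner software and any background step were not stated. The deposited matrix holds log2 values, equal to log2 Signal shifted to 1 median per array (9.26) and blank at ratios below 3.

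Intensities were corrected with normexp (offset 50), put on the log2 scale and quantile normalized, among 24 arrays for tissues and among 6 for strains within a tissue (R 4.3.3, limma 3.58.1, lmFit and eBayes with trend, Benjamini-Hochberg over all tested probes, threshold 0.05). Probes needed a ratio of at least 3 on all 3 arrays of a group, or on 3 of the 6 arrays of a tissue. Fits were tested on simulated data. The brightest probe on average stood for a gene with more than 1. Of the probes 14401 had 1 gene, 247 several and 18348 none. Of 1272 core spots 24 had flag 0 and were kept.

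Signed values are congenic minus B6, or a tissue minus the mean of the other 3. The series text lists 1 B6 fat array with the livers; its title and source say fat, and it was used so. The 25th array, congenic brain replicate 2, is outside the triplicates and entered 1 alternative. Title numbers recur across tissues and may name animals, but deviations of 9 same-numbered pairs correlated at -0.128 to 0.0398. Strains share no number.

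Members and lists were chosen with earlier results of these data known. Named are all paralogs and Rps19bp1, the 5 core genes of largest called difference each way per tissue, the 5 of smallest p per strain comparison, the 5 of widest tissue range, and core genes that failed the filter or whose probes disagreed. Rps27 was added as the partner of Rps27l. Alternatives changed background, scaling, filter, probe choice, trend, strain, block and each array in turn.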

Additional observations from a re-analysis of the deposited data

Results flagged for a closer look

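Rpl32, a large subunit protein gene, was the 1 core gene whose congenic arrays all lay on one side of B6 in a tissue and all on the opposite side in another. In brain the congenic arrays stood at 18.68, 18.68 and 18.73, against 19.15, 19.01 and 18.79 in B6, a log2 difference of -0.288 ± 0.149 (SE). In gonadal fat the congenic arrays stood at 18.97, 19.25 and 19.07, against 18.61, 18.72 and 18.87 in B6, a difference of 0.359 ± 0.217 (SE). The interaction of tissue and strain did not pass for it (limma, adjusted p = 0.868, unadjusted p = 0.055). Congenic arrays lay below all B6 arrays for 8.89% of tested probes in brain, and above them for 4.89% in fat. The share of tested probes with opposite sides in different tissues was not counted, so this gene cannot be set against it.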

How the results depend on the processing

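Of 2002 gene values between tissues under the alternatives, 1852 kept direction and side of the threshold, 87 lost and 30 gained a call and 33 changed sign, and all 265 between strains kept theirs. The cause was not tested unless fewer arrays or the centring itself gives it. With arrays centred on the median of all probes, on that of probes detected on all 24 arrays, or with the deposited matrix values, core medians were -0.316, -0.24 and -0.394 in brain, -0.362, -0.305 and -0.287 in liver, 0.0344, -0.00516 and 0.0537 in fat and 0.751, 0.658 and 0.736 in gastrocnemius. In the same order, core genes called higher and lower were 4 and 23, 5 and 21 and 3 and 25 in brain, 3 and 6, 3 and 8 and 3 and 5 in fat, and 43 and 1, 42 and 2 and 43 and 1 in gastrocnemius. Lower calls in liver were 23, 23 and 19, with 2 higher under the second. Medians of all probes were -0.126, -0.25, 0.0416 and -0.204 in the 4 tissues with quantile normalization and -0.229, -0.0164, 0.00454 and 0.0617 with the matrix values. Centred on the core mean, added after seeing the data, 16 were lower in brain, 13 higher and 14 lower in liver, 11 and 13 in fat and 12 and 12 in gastrocnemius. Congenic arrays alone gave 14 and 4 in brain and 4 and 1 in gastrocnemius, and B6 arrays alone 1 lower in fat. Shares of all tested probes between tissues are given above for quantile normalization, median centring and core mean centring alone. Counts under the other settings cannot be set against a share. Between strains, median centring and the matrix values gave core medians of -0.0157 and -0.0245 in brain and 0.597 and 0.655 in fat. The single interaction call was lost with median centring and with no filter, at 0 probes.

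Signs changed as follows. Rpl36al in fat (0.03) became -0.453, -0.493 and -0.434 under the 3 scalings above, -0.423 centred on the core mean and -0.0671 in B6 alone, and -0.0673 to 0.158 with 1 array left out. Rpl19 in gastrocnemius became 0.208, 0.115 and 0.192 under those 3. Centred on the core mean, Rps19bp1 in liver became 0.735, and Rpl7l1 and Rpl39l in fat -0.163 and -0.0739. In congenic fat alone Rpl22l1 was at 0.113, Rpl3l at -0.0488, Rps27l at 0.402 and Rps19bp1 at 0.0194. In B6 liver alone Rpl36al was at -0.0611, Rps19bp1 at 0.121 and Rpl39l at -0.0357. With 1 array left out, Rpl36al in liver ran from -0.0432 to 0.144, Rps27l in fat from -0.0964 to 0.0848, and Rps19bp1 from -0.274 to 0.125 in liver and from -0.23 to 0.0594 in gastrocnemius.

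With 1 array left out, the core median lay between 0.155 and 0.238 for brain, -0.994 and -0.745 for liver, 0.478 and 0.574 for fat and 0.149 and 0.292 for gastrocnemius. Core genes called higher ran from 17 to 23, 1 to 1, 33 to 38 and 14 to 23, and lower from 7 to 12, 44 to 48, 1 to 3 and 3 to 4, in that order of tissues. For these counts no share of all tested probes is given. Strain medians ran from 0.018 to 0.122, -0.00445 to 0.4, 0.238 to 0.378 and -0.15 to 0.0886. No core gene was called between strains in any such fit, while the probes called reached 2 in brain and 275 in fat, the latter without congenic replicate 2. The title number as a random block (replicate block, correlation -0.0855) gave core medians of 0.203, -0.882, 0.509 and 0.232 and changed 2 calls among the named genes, Rpl3l in fat (adjusted p = 0.0545) and Rpl7l1 in fat (adjusted p = 0.0482). No paired analysis was possible between strains because they share no title number. Signal over background limits Rpl3l outside gastrocnemius and leaves Rpl37 and Rpsa untested.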
